A study of Mus musculus with 17 samples.

Results

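The genes described here encode 10 integrin subunits that build receptors for extracellular matrix: the alpha subunits Itga1, Itga2, Itga3, Itga5, Itga6 and Itgav, and the beta subunits Itgb1, Itgb3, Itgb4 and Itgb5. They were chosen by name, with earlier results of these data known, and all 10 were found among the 49585 gene rows of each count table. The cells were bone-marrow endothelium of mice, obtained from crushed long bones and sorted as CD45-, Ter119-, CD31+ and Sca1+ before sequencing of poly(A) RNA by SmartSeq2. Wild-type animals (WT) were compared with animals lacking Eng in endothelium (KO), in which CreERT2 under the endothelial Cdh5 promoter acts on an Eng allele floxed at exons 5 and 6. Mice received tamoxifen when 8 weeks old, and cells were sorted 2 or 4 weeks afterwards. All 17 animals, WT included, are labelled as injected with tamoxifen, and the labels do not say whether WT animals carried the Cre. There were 4 WT (females f1 and f4, males m2 and m3) and 4 KO libraries (females f1 and f4, males m2 and m3) at 2 weeks. At 4 weeks there were 5 WT (females f and f3, males m1, m2 and m3) and 4 KO libraries (female f2, males m1, m2 and m3).

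An integrin is a pair of 1 alpha and 1 beta subunit that spans the membrane, binds matrix outside the cell and is linked through talin and kindlin to actin inside it. Itgb1 pairs with each of the alpha subunits listed here. Itgb4 pairs only with Itga6, and Itgb3 and Itgb5 pair with Itgav. Endothelial cells rest on a basement membrane of laminin, type IV collagen and perlecan, and they meet fibronectin and vitronectin when vessels grow or leak. Eng encodes endoglin, a co-receptor for ligands of the TGF-beta and BMP family on endothelium.

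Total counts per library ranged from 26705337 to 40882715 at 2 weeks and from 20477400 to 33726630 at 4 weeks. The 2-week libraries held fewer genes, with 10886 to 13583 genes having a count against 15996 to 21235 at 4 weeks. Mitochondrially encoded genes took 22.2% to 29.5% of the counts at 2 weeks and 4.66% to 8.99% at 4 weeks. The 2 time points therefore differ in library make-up in every animal, and time cannot be told apart from collection or library batch. Eng was at 1053 ± 252 (SD, n = 4) counts per 1000000 (CPM) in WT and 274 ± 51.8 (n = 4) in KO at 2 weeks, and at 2587 ± 122 (n = 5) and 779 ± 640 (n = 4) at 4 weeks. Its counts cover the whole gene, not only the floxed exons. The 4-week KO male m2 kept the most Eng of its group, 1647 CPM. All 13 endothelial markers of a list that includes Pecam1, Cdh5 and Ly6a (which encodes Sca1) were detected, and Ptprc, which encodes CD45, did not exceed 15.6 CPM in any library. Replicates are separate animals by their labels.

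The 4-week libraries divided into 2 sets that cross the genotypes, which no label marks. After the group means were taken off the log2 CPM of all genes with a mean of at least 4, WT f, m1 and m2 correlated with KO m1 and m2 (r from 0.12 to 0.52), and WT f3 and m3 with KO f2 and m3 (r from 0.46 to 0.53). Every pairing of a WT with a KO library across these sets gave r below 0, from -0.54 to -0.12. Each library was placed by the sign of its r with WT f or KO m1, so part of these signs follows from the placing. Taking off the group means also forces deviations of opposite sign within a group. The sets are used below only to describe the values. Marrow stroma and osteoblast markers summed to 734 to 1034 CPM in the 5 samples of the first set and to 351 to 502 CPM in the 4 of the second, and pericyte markers to 1337 to 3025 and 773 to 1009 CPM. The sets hold unequal shares of WT and KO, and their part in the subunit values at 4 weeks was not tested.

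Itgb1 had the highest level and Itga6 the next in all 4 groups. To compare genes, CPM were divided by kilobases of annotated exon (CPM per kb). In WT at 4 weeks Itgb1 led with 151 ± 23.8 CPM per kb (SD, n = 5), followed by the laminin receptor subunit Itga6 with 34.9 ± 6.17 and the fibronectin receptor subunit Itga5 with 30.2 ± 10.4. No library's Itga6 reached the lowest Itgb1, whereas the libraries of Itga6 and Itga5 overlapped. A middle group followed, with Itgb4 at 8.73 ± 1.95, Itga1 at 7.32 ± 1.88, Itga3 at 6.23 ± 2.37 and Itgb5 at 3.57 ± 2.63 CPM per kb. Each of these overlapped its neighbour in the order. Itgb3 (1.49 ± 0.350), Itgav (1.24 ± 0.550) and Itga2 (0.548 ± 0.346) were lowest, again with overlap between neighbours. Taking the longest annotated transcript as the length raised Itga6 to 73.1 CPM per kb, Itga1 to 12.4 and Itgav to 1.88, since these genes have long exon stretches outside that transcript. On that length the WT libraries of Itga6 (57.5 to 90.3) no longer overlapped those of Itga5 (23.1 to 48.03), Itga1 came before Itgb4 and Itgav before Itgb3. In KO the lowest Itgb1 library (83.9) was then below the highest Itga6 library (95.5).

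**Figure D1:**
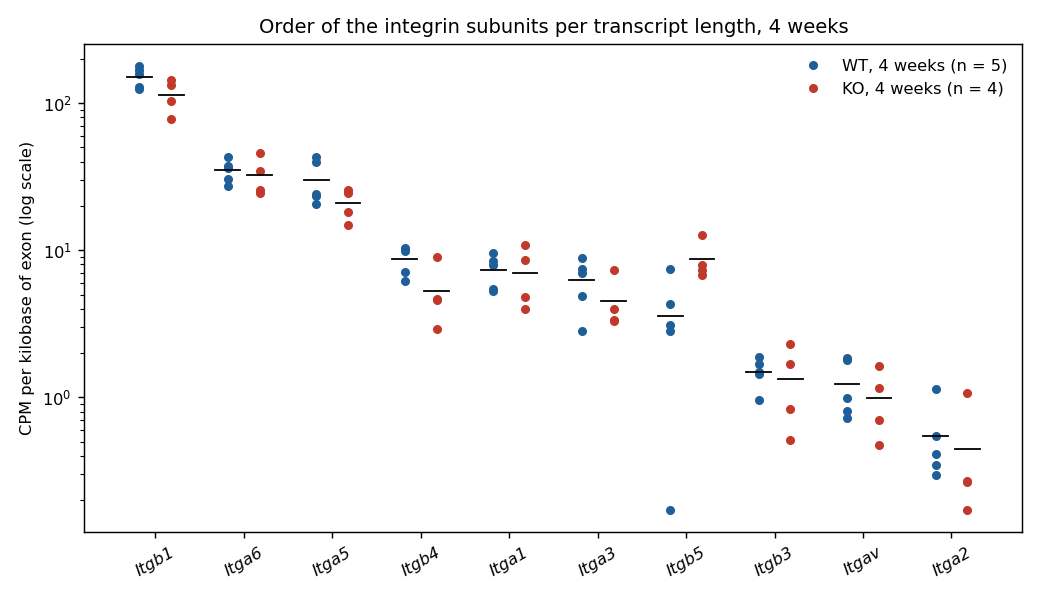
CPM per kb of exon (log axis) for the 10 subunits at 4 weeks, ordered by the WT mean, with 1 point per library and a line at each group mean. Itgb1 stands above every other subunit in both genotypes, and the Itgb5 points lie lower than those of Itgb4, Itga1 and Itga3 on average in WT but higher in KO.

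In KO at 4 weeks the order was led by the same 3 genes, with Itgb1 at 114 ± 29.2 CPM per kb (SD, n = 4), Itga6 at 32.6 ± 9.77 and Itga5 at 20.8 ± 5.19. Itgb5 came next at 8.69 ± 2.74, overlapping Itga1 at 7.04 ± 3.19. Among the 4 beta subunits, summed per kb, Itgb1 made up 91.6% ± 1.37 in WT (n = 5) and 87.9% ± 4.08 in KO (n = 4) at 4 weeks. Itgb5 made up 2.27% ± 1.85, from 0.102% to 5.15%, in WT and 6.83% ± 1.82, from 4.75% to 8.57%, in KO. These 2 ranges meet only through the highest WT library. Among the 6 alpha subunits Itga6 made up 44.1% ± 5.10 in WT and 49.1% ± 3.04 in KO, and Itga5 37.0% ± 5.13 and 31.7% ± 2.73. At 2 weeks Itgb1 and Itga6 were also first and second, with 64.4 ± 9.0 and 16.2 ± 3.39 CPM per kb in WT and 65.0 ± 3.95 and 14.1 ± 6.93 in KO (n = 4 each).

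Detection differed between the time points. All 10 subunits had more than 3 counts in each of the 9 libraries at 4 weeks. At 2 weeks between 4 and 8 of the 10 did so in a given library, and only Itgb1, Itga6 and Itga1 passed 3 counts in all 8. Of 5076 genes with a mean of 10 to 50 CPM at 4 weeks, the range that holds Itga3, Itgav and Itgb5, 70.3% were at or under 3 counts in at least 1 library at 2 weeks. Of 2668 genes at 50 to 200 CPM, the range of Itga1, Itga5 and Itgb4, 19.3% were. The 2-week values of the 7 less steady subunits are therefore given library by library, and 0 there allows a level of up to 3 counts, which is 0.0734 to 0.112 CPM depending on the 2-week library.

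**Figure D2:**
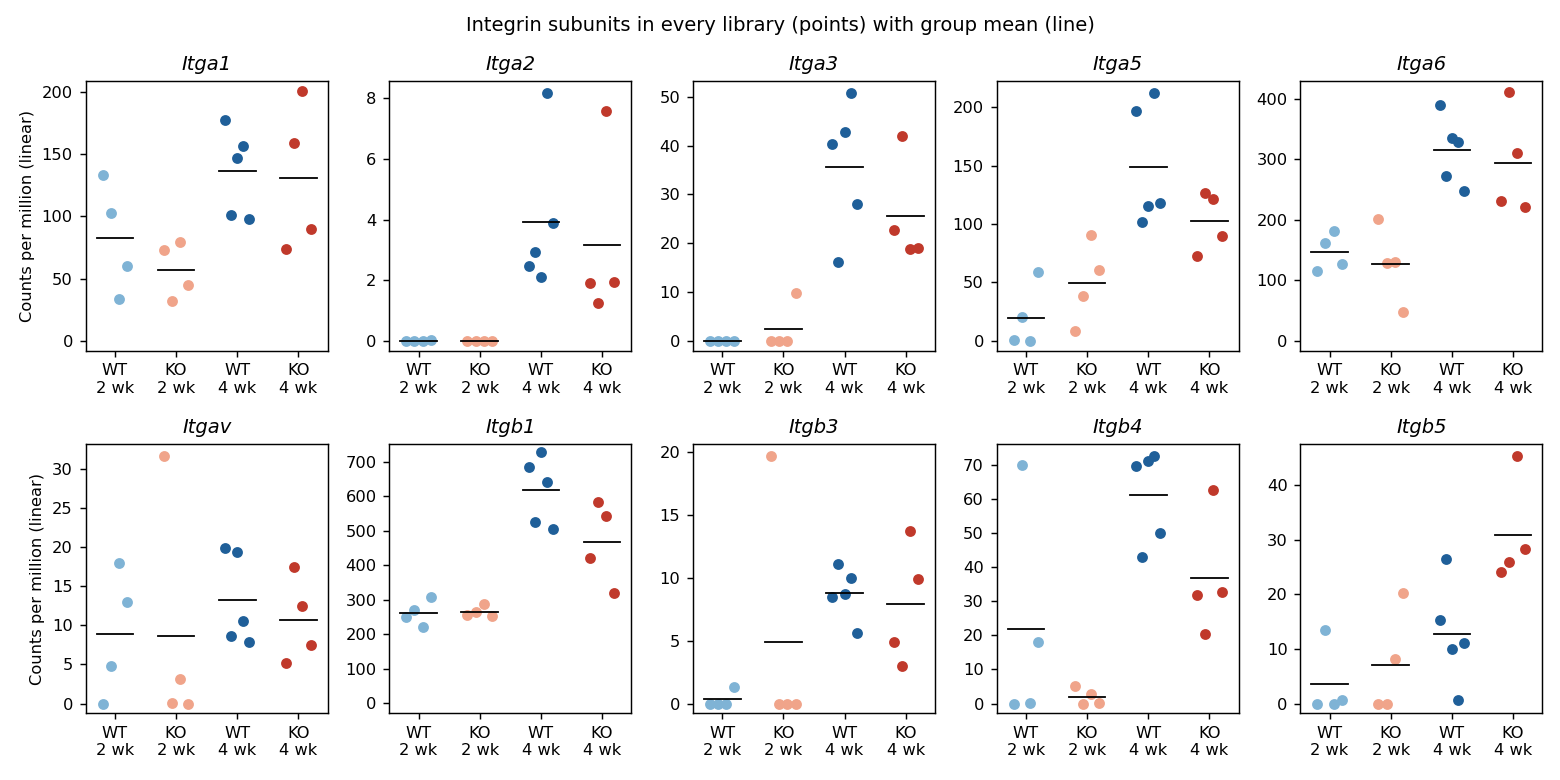
CPM of each subunit (linear axes, each with its own scale) in the 4 groups, with 1 point per library and a line at the group mean. Itgb1 forms a narrow band at 2 weeks in both genotypes, many of the other subunits are at 0 in some 2-week libraries, and Itgb5 is the subunit whose KO points at 4 weeks sit highest against WT.

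Deletion of Eng was compared with WT within each time point, with edgeR's quasi-likelihood test over all genes, sex as a term and Benjamini-Hochberg adjustment (threshold 0.05). At 4 weeks 15209 genes were tested, all 10 subunits among them. No subunit passed, and nor did any other gene (0%), Eng included (log2 fold change -1.72, SE 0.501 and adjusted p = 1 by edgeR). Without adjustment 422 genes (2.77%) had p under 0.05, 1.30% higher and 1.47% lower in KO, and DESeq2 passed 17 genes but no subunit. Of the 10 subunits, 9 had a log2 fold change below 0, against 48.7% of all genes, and the median was -0.40 against 0.01. This count fell to 6 of 10 without the KO female f2, and to 6 of 10 in the male pairs taken as blocks. Between males of the same number, 4 of the 10 subunits (Itgb1, Itgb4, Itga3 and Itga2) were lower in KO in all 3 pairs and 1, Itgb5, was higher in all 3, against 11.7% and 12.3% of all genes tested. The KO and WT libraries overlapped for each subunit, where 0.664% of all genes lay wholly higher and 0.526% wholly lower in KO.

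Itgb1, the common beta partner, was at 685, 526, 727, 641 and 506 CPM in the WT libraries at 4 weeks (f, f3, m1, m2, m3) and at 422, 583, 541 and 320 CPM in KO (f2, m1, m2, m3). The KO female f2 and male m3 lay below every WT library, and the other KO males lay within the WT range. These 2 KO libraries belong to the library set of WT f3 and m3, the lowest WT libraries. Within each set both KO libraries were below the WT libraries, 583 and 541 against 641 to 727 CPM in the first and 422 and 320 against 526 and 506 CPM in the second. Against the WT male of the same number, each KO male was lower. The log2 fold change was -0.40 (SE 0.186, 95% interval -0.83 to 0.02, unadjusted p = 0.0589, adjusted p = 1 by edgeR), and -0.40 (SE 0.130, adjusted p = 1) with the male pairs as blocks. The gene is at GRCm38 chr8:128685654-128733200 on the plus strand.

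Itgb4, the hemidesmosome-type partner of Itga6 for laminin, was at 69.6, 43.1, 71.1, 72.6 and 49.9 CPM in WT at 4 weeks (f, f3, m1, m2, m3) and at 31.9, 20.3, 62.6 and 32.6 CPM in KO (f2, m1, m2, m3). Of the KO libraries, 3 of 4 lay below all WT libraries and m2 lay inside their range. The log2 fold change was -0.75 (SE 0.317, 95% interval -1.47 to -0.03, unadjusted p = 0.0434, adjusted p = 1 by edgeR), and -1.07 without the KO male m2. Itgb4 was the only subunit with an unadjusted p under 0.05. It lies at chr11:115974709-116008412 and shares 537 bases of exon with a noncoding gene on the opposite strand, B230344G16Rik; the strand setting of the counting is not given in the sources used here.

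Itgb5, a partner of Itgav in a vitronectin receptor, was the only subunit with a log2 fold change above 0 at 4 weeks. It was at 15.2, 26.4, 10.1, 0.610 and 11.1 CPM in WT (f, f3, m1, m2, m3) and at 24.1, 25.9, 45.3 and 28.2 CPM in KO (f2, m1, m2, m3). All KO libraries were above 4 of the 5 WT libraries, and the WT female f3 lay among them. The log2 fold change was 1.66 (SE 0.795, 95% interval -0.14 to 3.47, unadjusted p = 0.0669, adjusted p = 1 by edgeR). It was 1.16 without the WT male m2, which held only 19 counts, and 2.63 in the male pairs taken as blocks. Itgb3, the other partner of Itgav, was at 5.64 to 11.1 CPM in WT with a median of 8.73 (n = 5) and at 4.88, 3.02, 13.7 and 9.93 CPM in KO (f2, m1, m2, m3). Its log2 fold change was -0.18 (SE 0.517).

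The promoters of Itgb1 and Itgb5 are shown because these 2 beta subunits had 4-week estimates on opposite sides of 0. The sequences run from 250 bases before to 50 bases after the RefSeq gene start (GRCm38.p6, plus strand, 5′ to 3′). Capitals mark every match, on either strand, to GGGCGG, the core of the GC box bound by Sp factors, or to GGCGCC, a GC-rich palindrome described for SMAD proteins downstream of BMP receptors. The first lies at chr8:128685404-128685703 and the second at chr16:33829415-33829714.
Itgb1: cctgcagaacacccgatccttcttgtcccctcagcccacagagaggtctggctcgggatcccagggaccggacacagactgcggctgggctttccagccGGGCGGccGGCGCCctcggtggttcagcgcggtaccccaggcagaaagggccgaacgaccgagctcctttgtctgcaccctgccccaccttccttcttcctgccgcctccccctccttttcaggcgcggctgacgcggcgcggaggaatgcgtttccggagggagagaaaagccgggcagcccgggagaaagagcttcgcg
Itgb5: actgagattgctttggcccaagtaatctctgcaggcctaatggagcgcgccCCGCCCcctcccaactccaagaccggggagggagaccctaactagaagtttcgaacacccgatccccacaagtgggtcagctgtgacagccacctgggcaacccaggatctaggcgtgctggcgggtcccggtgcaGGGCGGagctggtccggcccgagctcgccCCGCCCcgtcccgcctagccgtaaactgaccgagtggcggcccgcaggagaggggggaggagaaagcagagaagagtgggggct
The Itgb1 window holds 1 GGGCGG and 1 GGCGCC, which do not overlap, and the Itgb5 window holds 3 matches to GGGCGG and 0 to GGCGCC. Among all 32851 promoters of this length, 35.7% hold GGGCGG and 11.9% hold GGCGCC. Promoters were matched for 7 of the 10 subunits, 6 of them with a GC box and 1, Itgb1, with the palindrome; the others are Itga6, Itgb3 and Itgb4. A match describes these letters and is not a bound site.

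Of the alpha subunits at 4 weeks, Itga5, which with Itgb1 forms the main fibronectin receptor, was at 197, 102, 116, 212 and 118 CPM in WT (f, f3, m1, m2, m3) and at 73.0, 127, 121 and 89.8 CPM in KO (f2, m1, m2, m3). The KO female f2 and male m3 lay below all WT libraries, and only 2 WT libraries, f and m2, lay above all KO libraries. In the second library set, KO f2 and m3 (73.0 and 89.8 CPM) lay below WT f3 and m3 (102 and 118 CPM), and in the first KO m1 and m2 lay between the lowest and the next WT library. Its log2 fold change was -0.56 (SE 0.263, 95% interval -1.16 to 0.03, unadjusted p = 0.0616, adjusted p = 1 by edgeR).

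Of the laminin receptor subunits, Itga6 was at 389, 273, 336, 329 and 248 CPM in WT and 231, 412, 312 and 222 CPM in KO in the same order of libraries. The KO male m1 was the highest of all 9 libraries and 2 KO libraries, f2 and m3, were the lowest. The WT libraries of their set, f3 and m3, were the lowest of WT, and in the first set the KO males m1 and m2 lay above and below all WT libraries. The log2 fold change was -0.10 (SE 0.208), with a 95% interval of -0.57 to 0.37. Itga3 was at 40.3, 16.2, 42.7, 50.7 and 28.0 CPM in WT and 22.7, 42.0, 18.8 and 19.1 CPM in KO, with a log2 fold change of -0.48 (SE 0.356), and of -0.77 without the KO male m1. All KO values of Itga3 lay inside the WT range.

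Of the collagen receptor subunits, Itga1, which favours the type IV collagen of basement membrane, was at 177, 101, 147, 157 and 98.0 CPM in WT and 74.0, 159, 201 and 90.0 CPM in KO. The KO values spread below and above those of WT, and the log2 fold change was -0.13 (SE 0.308). Its exons share 685 bases with Gm49395 on the same strand. Itga2, which favours fibrillar collagen, was at 2.46, 2.93, 2.11, 8.16 and 3.88 CPM in WT and 1.91, 1.23, 7.58 and 1.93 CPM in KO. The male m2 was the highest library in each genotype. Its log2 fold change was -0.42 (SE 0.718), and leaving out m2 moved it to -1.13 for the KO male and to -0.01 for the WT male. Itgav, the alpha subunit of the vitronectin receptors, was at 7.84 to 19.9 CPM in WT with a median of 10.6 (n = 5) and at 5.13, 17.5, 12.5 and 7.54 CPM in KO, with a log2 fold change of -0.40 (SE 0.483). Leaving out 1 library moved it to between -0.69 (without the KO male m1) and -0.0047 (without the KO female f2). Its exons share 634 bases with Gm13684 on the opposite strand.

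**Figure D3:**
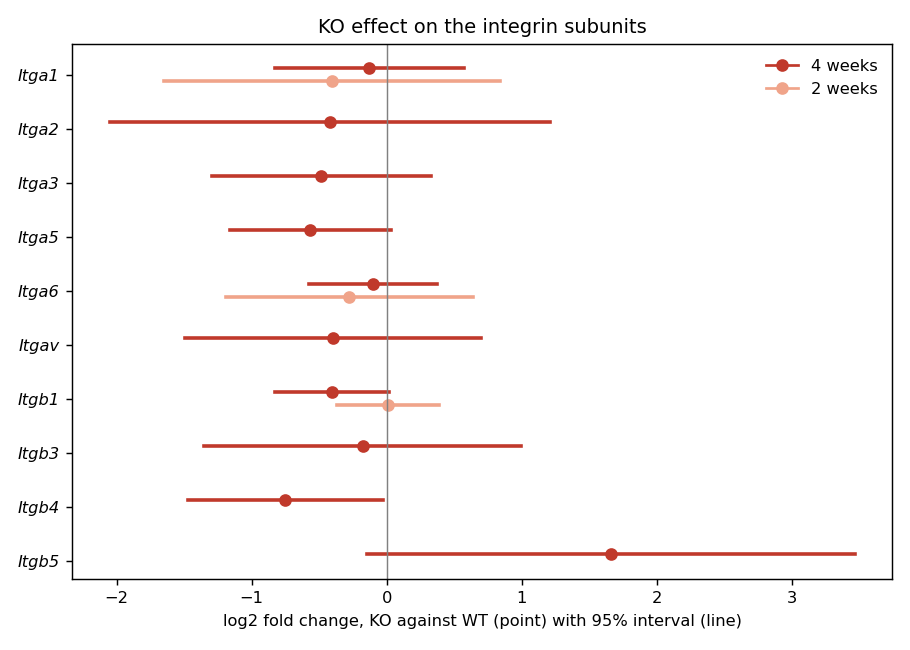
log2 fold change of KO against WT (points) with 95% intervals (lines) from edgeR, at 4 weeks for all 10 subunits and at 2 weeks for the 3 with more than 3 counts in every 2-week library. At 4 weeks the points of 9 subunits lie left of 0 and only the Itgb4 interval leaves 0 out, while the 2-week Itgb1 interval, -0.37 to 0.39, is centred on 0.

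Sums over markers of other cells overlapped between genotypes at 4 weeks, and no marker of these 3 lists passed the adjusted threshold, but their estimates were not centred on 0. Of the stroma markers 8 of 11 tested were below 0 with a median log2 fold change of -0.40, the same as the median of the subunits, and 2 were lower at an unadjusted p under 0.05. Of the erythroid markers 8 of 8 tested were above 0 with a median of 1.56, and 2 were higher at that level. Of the pericyte markers 4 of 7 were below 0 with a median of -0.36, and the libraries of 1 lay wholly lower in KO. Between males of the same number, the stroma sum was lower and the erythroid sum higher in KO in 3 of 3 pairs. The summed CPM of 9 erythroid markers was 172 to 1291 in WT and 621 to 2911 in KO, and all of them were detected in both groups. The summed CPM of 12 marrow stroma and osteoblast markers was 470 to 1034 in WT and 351 to 804 in KO, with 1 marker at 0 in each. The summed CPM of 7 pericyte and smooth muscle markers was 773 to 3025 and 835 to 2178. Stroma and mural cells also express integrins, and their part in the lower KO estimates was not tested. In sorted pools, fewer cells of a type and less RNA per cell cannot be told apart. The 13 endothelial markers summed to 12940 to 13990 CPM in WT and to 11910 to 13800 CPM in KO libraries.

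At 2 weeks 10477 genes were tested, and none passed the adjusted threshold (0%), while 276 (2.63%) had an unadjusted p under 0.05 and DESeq2 passed 149. The fit held 7 of the 10 subunits, since Itga2, Itga3 and Itgb3 had too few counts. None of the 7 passed, by either tool. Eng itself did not pass here (log2 fold change -1.96, SE 0.249, adjusted p = 0.612 by edgeR). A missing call at 2 weeks therefore does not show that a gene was unchanged. Itgb1 was at 251, 271, 221 and 309 CPM in WT and 255, 266, 288 and 253 CPM in KO (f1, f4, m2, m3 in each). All KO values lay inside the WT range, with a log2 fold change of 0.01 (SE 0.159) and a 95% interval of -0.37 to 0.39.

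Itga6 was at 115, 162, 181 and 127 CPM in WT at 2 weeks and at 201, 129, 130 and 47.9 CPM in KO. The KO male m3 was the lowest library and the KO female f1 the highest. The log2 fold change was -0.27 (SE 0.385), and 0.04 without the KO male m3. Itga1 was at 133, 103, 33.9 and 60.0 CPM in WT and 72.7, 32.2, 79.3 and 44.9 CPM in KO, with a log2 fold change of -0.41 (SE 0.525), and of -0.035 without the KO female f4. The groups of both genes overlapped.

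The other subunits were patchy at 2 weeks. Itga5 was at 0.711, 20.1, 0 and 58.8 CPM in WT and 8.43, 38.5, 91.0 and 61.1 CPM in KO (f1, f4, m2, m3), with a log2 fold change of 1.26 (SE 1.84), which was 2.77 without the WT male m3 and 0.71 without the KO female f4. Itgb4 was at 0, 69.9, 0.0307 and 18.0 CPM in WT and 5.02, 0, 2.83 and 0.220 CPM in KO, with a log2 fold change of -3.23 (SE 2.98), which was -1.05 without the WT female f4. In each gene the WT libraries ran from 0 to within or above the KO range. Itgav was at 0, 4.79, 18.0 and 12.9 CPM in WT and 31.7, 0.0295, 3.10 and 0 CPM in KO, and Itgb5 at 0, 13.4, 0 and 0.663 CPM in WT and 0, 0, 8.21 and 20.2 CPM in KO. The SE of the log2 fold change was 4.26 for Itgav and 16.6 for Itgb5, so the direction of these was not resolved.

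Itga3 was at 0 in all 4 WT libraries and in 3 KO libraries at 2 weeks, and at 9.79 CPM (356 counts) in the KO male m3. Itgb3 was at 0 except for 1.33 CPM in the WT male m3 and 19.7 CPM in the KO female f1. Itga2 had 1 count, in the WT male m3, over all 8 libraries. Each of these genes thus rests on at most 1 library per group. The KO males m2 and m3 also held leukocyte transcripts, with the summed CPM of 11 neutrophil markers reaching 4176 in KO against 22.7 to 110 in WT. Erythroid markers were not limited to these males: their summed CPM was 61.4 to 233 in the WT libraries and 278, 409, 1239 and 773 in KO (f1, f4, m2, m3), with no overlap, and 3 of 6 tested were higher in KO at an unadjusted p under 0.05. Their part in the 2-week values was not tested. Itgb2, the beta subunit of leukocyte integrins, had 911 counts in m2, 786 in m3 and 0 in the other 2-week libraries. Without both males Itgb1 had a log2 fold change of -0.03, Itga6 of 0.22 and Itga1 of -1.22 (adjusted p = 0.839 by edgeR), and no subunit passed.

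The KO effects at the 2 time points were then compared in 1 fit of all 17 libraries. Of 15703 genes, 12 passed (0.0764%), and none was a subunit. For Itgb1 the effect at 4 weeks was lower than that at 2 weeks by a log2 difference of -0.43 (SE 0.245, 95% interval -0.96 to 0.09, adjusted p = 0.672 by edgeR). The differences for Itga6 (0.17, SE 0.432) and Itga1 (0.45, SE 0.576) were smaller than their errors. That for Itga3 was -9.40 (SE 3.08, adjusted p = 0.369 by edgeR), but DESeq2 passed it (adjusted p = 1.55e-16), and without the KO male m3 of 2 weeks it was -0.52. The other differences were 0.97 (SE 0.723) for Itga2, -2.03 (SE 1.72) for Itga5, -0.29 (SE 3.05) for Itgav, -3.82 (SE 4.40) for Itgb3, 2.73 (SE 2.40) for Itgb4 and -0.21 (SE 3.06) for Itgb5.

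The subunits were also compared between the time points within each genotype, from the same fit, in which the median of all genes was higher at 4 weeks by 0.42 in WT and 0.49 in KO on the log2 scale. In WT 1086 genes passed (6.92%), 5.03% higher and 1.88% lower at 4 weeks. Many genes, Itga2, Itga3 and Itgb3 among them, had too few counts for the 2-week fit and entered this one through the 4-week libraries. Such entry favours a higher value at 4 weeks. Such genes are counted in the shares of all genes in WT, 63.5% with estimates above 0 and 16.1% with libraries wholly higher. Among the 10464 genes also kept by the 2-week filter the median was 0.06 in WT and 0.10 in KO, 52.5% were above 0, 1.79% passed as higher and 13.7% lay wholly higher in WT. Of the 7 subunits among these, all 7 had estimates above 0, 1 passed, Itgb1, and 3 lay wholly higher (Itgb1, Itga5 and Itga6). Itga2 and Itga3 were also past the threshold, in the direction that the filter favoured, and no subunit was lower. In KO 994 genes passed (6.33%), 4.84% higher and 1.49% lower. Itga2, with its direction favoured by the filter, was the only subunit among them. Of all genes 21.4% had KO libraries wholly higher at 4 weeks. Among those kept by the 2-week filter 1.96% passed as higher and 15.5% lay wholly higher, against 0 and 4 of 7 subunits (Itgb1, Itga6, Itgb4 and Itgb5).

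Itgb1 rose from 263 ± 36.7 CPM (SD, n = 4) to 617 ± 97.1 (n = 5) in WT, and the libraries did not overlap. The log2 fold change was 0.90 (SE 0.171, adjusted p = 0.00653 by edgeR). In a fit of males m2 and m3 alone, with the number as a block, Itgb1 did not pass (0.71, SE 0.347, adjusted p = 0.566 by edgeR). In KO it was at 265 ± 16.1 and 467 ± 119 CPM (n = 4 each), with no overlap, and its log2 fold change was 0.47 (SE 0.179, adjusted p = 0.124 by edgeR), close to the median of all genes and above that of the genes kept by the 2-week filter. Itga6 was at 146 ± 30.6 and 315 ± 55.7 CPM in WT and at 127 ± 62.6 and 294 ± 88.1 CPM in KO, again with no overlap. Its log2 fold changes were 0.81 (SE 0.297, adjusted p = 0.117 by edgeR) and 0.97 (SE 0.324, adjusted p = 0.084 by edgeR), and DESeq2 passed both. Itga1 had log2 fold changes of 0.44 (SE 0.409) in WT and 0.90 (SE 0.431) in KO, with overlapping libraries.

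Endothelial marker transcripts moved with these values. At 2 weeks the 13 markers summed to between 6175 and 7848 CPM in the WT libraries and between 5363 and 6189 CPM in the KO libraries, less than in any library at 4 weeks. As a percent of that sum, a ratio chosen after seeing the data, Itgb1 was 3.92 ± 0.514 in WT and 4.53 ± 0.343 in KO at 2 weeks, and 4.58 ± 0.625 and 3.68 ± 0.892 at 4 weeks. Itga6 was 2.18 ± 0.507 and 2.16 ± 1.04 at 2 weeks, and 2.34 ± 0.345 and 2.30 ± 0.581 at 4 weeks, in the same order. Itga1 was between 0.962 and 1.23 on average in all groups. Each of these ranges overlapped between the time points within a genotype. With libraries scaled to 12 endothelial markers detected in all of them, the median of all genes shifted to -0.23 in WT and -0.29 in KO. The Itgb1 rise in WT was then 0.24 (adjusted p = 0.382 by edgeR), no longer past the threshold, and its KO estimate was -0.33. Under this scaling Itga1 and Itgav in WT and Itga5 and Itgb3 in KO also turned below 0.

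**Figure D4:**
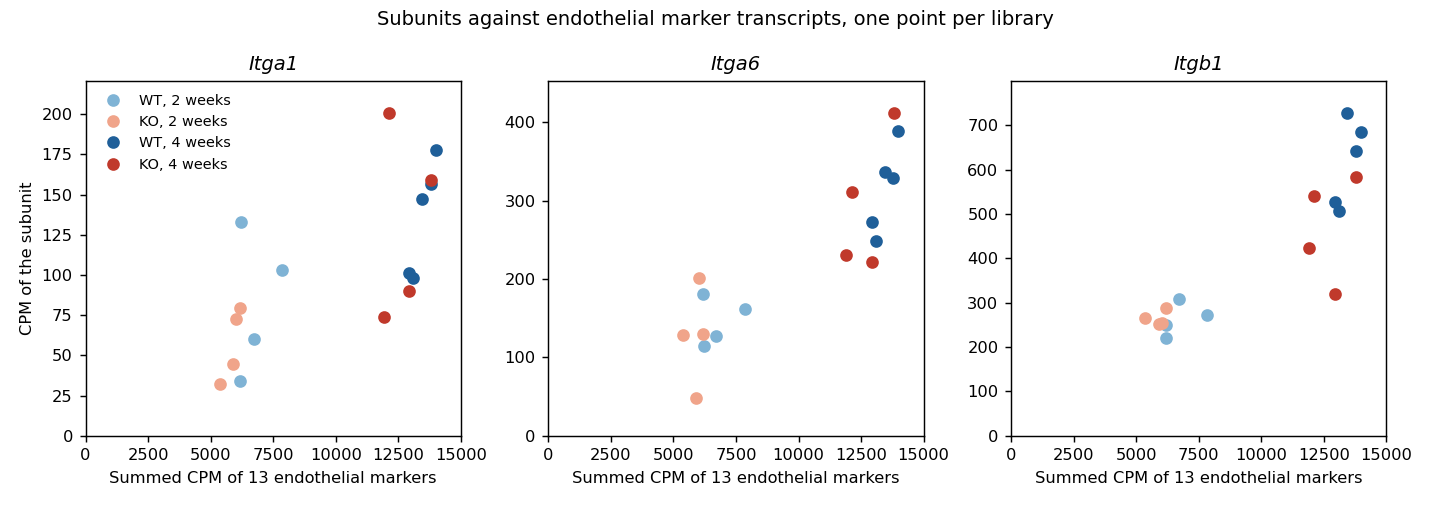
CPM of Itga1, Itga6 and Itgb1 against the summed CPM of 13 endothelial markers (linear axes from 0), with 1 point per library. The 2-week libraries lie at 5363 to 7848 on the horizontal axis and the 4-week libraries at 11910 to 13990, and every 4-week Itga6 and Itgb1 point lies above the 2-week points.

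Itga2 and Itga3 were nearly absent at 2 weeks and present in every library at 4 weeks. Itga2 had 1 count over the 4 WT libraries at 2 weeks and 565 over the 5 at 4 weeks. It was past the threshold in WT (adjusted p = 0.00634 by edgeR) and in KO (adjusted p = 0.00527 by edgeR), where only its 4-week libraries had brought it into the fit, so these calls could go no other way. In KO all 2-week libraries were at 0, and the mean at 4 weeks, 3.16 ± 2.96 CPM, was at least 32.9-fold higher than the mean of 3 counts per library. Itga3 in WT was at 0 at 2 weeks and at 35.6 ± 13.5 CPM at 4 weeks, at least 439-fold higher on the same basis, and it too entered the fit through the 4-week libraries (adjusted p = 0.0292 by edgeR). That call was lost, at adjusted p between 0.0501 and 0.0668, without any 1 of the WT libraries of 2 weeks, the WT females f or f3 of 4 weeks, or the KO male m1 of 4 weeks. In KO, Itga3 did not pass (log2 fold change 3.49, SE 2.03, adjusted p = 0.378 by edgeR), but did without the 2-week male m3 (adjusted p = 0.00202). Of 5076 genes at 10 to 50 CPM at 4 weeks, 1.5% were at or under 3 counts in all 4 WT libraries at 2 weeks, as Itga3 was. Of 2748 genes at 1 to 10 CPM, the range of Itga2, 11.4% were. Both genes stayed past the threshold in WT under the endothelial scaling (adjusted p = 0.00499 for Itga2 and 0.0208 for Itga3 by edgeR). They entered that fit through the 4-week libraries too, so this adds no support for the rise.

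Itga2 and Itgb3 are also genes of platelets and megakaryocytes. At 2 weeks the summed CPM of 13 megakaryocyte and platelet markers was 37.6 to 109 in the WT libraries, with 7 of them at 0, and 51.3 to 126 in the KO libraries, with 3 at 0. At 4 weeks it was 163 to 219 and 183 to 277, with 1 at 0 in each. Their part in these values was not tested.

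Of the remaining subunits, Itga5 in WT lay above its 2-week range in all 5 libraries at 4 weeks (19.9 ± 27.5 against 149 ± 51.4 CPM) and its log2 fold change, 2.67 (SE 1.27, adjusted p = 0.23 by edgeR), did not pass. Itgb3 also did not overlap in WT (0.331 ± 0.663 against 8.80 ± 2.06 CPM), nor did Itgb4 in KO (2.02 ± 2.38 against 36.9 ± 18.1 CPM) or Itgb5 in KO (7.11 ± 9.57 against 30.9 ± 9.73 CPM), and none of these passed. Itgav was at 8.92 ± 8.05 and 13.3 ± 5.90 CPM in WT and at 8.70 ± 15.4 and 10.6 ± 5.47 CPM in KO, with overlapping libraries. In the comparisons whose libraries overlapped, the log2 fold changes were 1.39 (SE 1.76) for Itgb4, 1.82 (SE 2.22) for Itgb5 and 0.27 (SE 1.80) for Itgav in WT, and 0.65 (SE 1.22) for Itga5, 0.47 (SE 3.08) for Itgb3 and -0.03 (SE 2.15) for Itgav in KO.

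The other genes of the integrin system were taken as lists. Of 16 other integrin subunits, which include those of platelets and leukocytes, 7 were tested at 4 weeks and none passed between genotypes; the smallest unadjusted p were those of Itgb7 (0.139), Itga9 (0.418) and Itgb2 (0.444). At 4 weeks the 16 together gave 23.4 to 49.7 CPM in the WT libraries and 29.5 to 41.5 CPM in the KO libraries, less than Itgb1 alone in any of them. Of 28 adapters and linkers to actin, 25 were tested and none passed, with 12 below 0 and a median of 0.02. The smallest unadjusted p were those of the kindlin Fermt2 (log2 fold change -0.32, unadjusted p = 0.0533), Bcar1 (-0.36, unadjusted p = 0.0814) and the focal adhesion kinase Ptk2 (-0.70, unadjusted p = 0.0858). Of 32 matrix ligands 30 were tested and none passed, with 22 below 0 and a median of -0.21, beside the stroma median of -0.40. Summed ligand CPM followed the 2 library sets, at 7143 to 9473 in the first and 5270 to 5612 in the second. The smallest unadjusted p there were those of Col1a1 (-1.25, unadjusted p = 0.0277), Postn (-1.19, unadjusted p = 0.0365) and the perlecan gene Hspg2 (-0.57, unadjusted p = 0.0776). Col1a1 is also a stroma marker, and the stroma values given above lie beside it. Of 14 membrane partners none passed, with 5 below 0 and a median of 0.06, and the smallest unadjusted p were those of Sdc4 (0.106), Bsg (0.121) and Cd82 (0.126). At 2 weeks and in the difference of effects none of the 4 lists had a gene past the adjusted threshold. At 2 weeks the smallest unadjusted p in each list were those of Lims2 (0.0339), Lims1 (0.0778) and Tns1 (0.165) among adapters, Thbs1 (0.0382), Mfge8 (0.115) and Col4a1 (0.125) among ligands and Cd36 (0.0266), Cd81 (0.135) and Cd47 (0.281) among partners; Itga2b (0.709) was the only other subunit tested. For the difference they were Itga7 (0.00424), Itga9 (0.00868) and Itgb2 (0.0237) among other subunits and Radil (0.0353), Lims2 (0.0598) and Parvg (0.082) among adapters. Among ligands they included Col6a2 (0.000157) and Thbs1 (0.0028), and among partners they were Bsg (0.141), Cd81 (0.236) and Cd36 (0.26). At 2 weeks Itga7, Itga9 and Radil were at 0 in all KO libraries, and Itgb2, Parvg and Col6a2 at 0 in all WT libraries. The 2-week counts of Itgb2 came only from the KO males m2 and m3, which held neutrophil transcripts.

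Between the time points in WT, where 5.03% of all genes rose, 6 of 30 matrix ligands rose and none fell, with a median of 1.56 against 0.42 for all genes. They were the type IV collagen chains Col4a1 (log2 fold change 1.63, SE 0.245) and Col4a2 (1.32, SE 0.208), Hspg2 (1.36, SE 0.320), and Thbs1, Col6a1 and Col6a2, which were low at 2 weeks. Col4a1 went from 633 ± 147 CPM (SD, n = 4) to 2411 ± 883 (n = 5). In the same WT comparison the median was 1.53 for pericyte and smooth muscle markers and 0.82 for endothelial markers, of which 4 of 13 rose. Among the genes kept by the 2-week filter 1.79% rose in WT and 1.96% in KO. The lists were not tested under the endothelial scaling. Of 14 membrane partners 4 rose: the tetraspanin Cd9 (1.32, SE 0.346), the urokinase receptor Plaur, Slc3a2 (the heavy chain of CD98) and Dst. Of 26 adapters 2 rose, Fermt2 (0.64, SE 0.171) and Tns3, and Lims2 fell by 0.70 (SE 0.132). None of 8 other subunits passed. In KO, where 4.84% of all genes rose, 6 of 30 ligands rose, among them Col4a1, Col4a2, Hspg2, Mfge8 and Lama5, as did 5 of 14 partners (Cd9, Dst, Slc3a2, Cd36 and Cd47), the talin gene Tln1 (0.97, SE 0.253) of 26 adapters and Itga9 of 8 other subunits, and none fell. Of the genes named here Col6a1, Col6a2, Tns3 and Itga9 were not kept by the 2-week filter. They entered through the 4-week libraries, which favours a higher value at 4 weeks. The WT and KO comparisons share 1 estimate of the spread.

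For each subunit the gene whose log2 CPM varied most like it over the 17 libraries, after taking off the 4 group means, was sought among the genes with a mean log2 CPM of at least 4 (5093 or 5094 genes). Itgb1 was most like Flt1, the endothelial VEGF receptor (Pearson's r = 0.88, Spearman's rho = 0.84). Itga6 was most like Ptprm, a receptor tyrosine phosphatase at cell contacts (r = 0.96, rho = 0.96). For Itga1 it was Krt222 (r = 0.88), for Itga5 Lcmt1 (r = 0.95), for Itgav Polg (r = 0.95), for Itgb4 Dhx30 (r = 0.93) and for Itgb5 Dnajb9 (r = 0.92). For Itga3 it was Cdc37l1 (r = 0.93), for Itgb3 Kars (r = 0.87) and for Itga2 Aldoa (r = 0.68). These describe the best match among many genes, and the points share library and depth. Apart from Itgb1, Itga6 and Itga1, the subunits have 2-week libraries at or under 3 counts in these correlations. Between subunits, the highest values were those of Itga6 with Itgav (r = 0.71) and Itga5 with Itgb4 (r = 0.67), and Itga6 with Itgb4, which pair as protein, gave r = 0.24.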

How the data were processed

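The authors deposited 1 table of raw counts per gene for each of 17 SmartSeq2 libraries, which carry no molecular identifiers. The submitters' processing notes name cutadapt, STAR and HTSeq 0.6.1p1 with GRCm38 (mm10); the annotation version and strand setting are not given in the sources used here. Of 49585 gene IDs, 49326 matched a symbol in GENCODE M21. Counts were tested with edgeR 4.0.16 in R 4.3.3 (TMM, filterByExpr, robust quasi-likelihood F test, sex as a term), with 1 fit per time point for the KO effect and 1 of all libraries for the rest, and p-values were adjusted over all genes. DESeq2 1.42.0, other filters, scalings and left-out libraries were alternatives. CPM used total counts, and exon lengths came from the merged exons of M21. The scripts were tested on simulated data. At 4 weeks males sharing a number deviated together (r from 0.12 to 0.52 in 3 of 3 pairs; other pairings -0.54 to 0.53), each pair lying within 1 of the 2 library sets of the report, so a fit with the male pairs as blocks was also made there; the main fit has no pair term, and the labels do not say what the numbers mark. All subunits were named in every comparison; of the lists, those past the threshold or, where none passed, the 3 with the smallest p, except 1 gene that is not reported here. The subunits and lists were chosen with earlier results of these data known. Intervals on counts cover counting error only.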

Additional observations from a re-analysis of the deposited data

Results flagged for a closer look

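Within groups of 4 or 5 animals, 8 of the 40 sets of values (10 subunits in 4 groups) had a highest library that stood apart from its group by a gap test at the 95% level, which chance meets in about 1 of 20 for values without ties. In 4 of the 8, all other libraries of the group were at 0, where any count meets the test, and that rate does not apply. In WT at 2 weeks these were Itga2 in male m3 (0.0265 CPM, a single count), Itgb3 in male m3 (1.325 CPM), both with the others at 0, and Itgb5 in female f4 (13.43 CPM, the others 0 to 0.663). In KO at 2 weeks they were Itga3 in male m3 (9.787 CPM, the others 0), Itgav in female f1 (31.68 CPM, the others 0 to 3.10) and Itgb3 in female f1 (19.7 CPM, the others 0). In KO at 4 weeks they were Itga2 in male m2 (7.582 CPM, the others 1.23 to 1.93) and Itga3 in male m1 (42.01 CPM, the others 18.8 to 22.7). None was in WT at 4 weeks.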

How the results depend on the processing

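DESeq2 passed more genes than edgeR: 149 at 2 weeks and 17 at 4 weeks for the KO effect (edgeR 0 and 0), 1303 for the difference of effects (12), 2938 for time in WT (1086) and 2873 in KO (994). It passed 1 subunit for the difference (Itga3, -23.75) and 2 for time in KO (Itga2 and Itga6). Without a low-count filter 6, 580 and 567 genes passed for the difference and for time in WT and KO; with endothelial scaling 1812 and 1798 passed for time, and without the 2-week KO males m2 and m3 251 passed for the difference. Without those males time in KO passed 2 subunits, Itga2 and Itga3. With the replicate block no gene passed for the difference (0), 5 passed for time in each genotype, and 0 subunits passed for time, where only males m2 and m3 remain. Numbers did not pair at 2 weeks (r -0.01 to 0.06 in 4 pairs). The cause of these shifts was not tested.

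Signs turned as follows, none of them past the threshold. For the KO effect at 2 weeks Itgb5 was 1.14 without the sex term and 3.76 with the replicate block; without m2 and m3, Itga6 was 0.22, Itgav 2.69 and Itgb1 -0.032. At 4 weeks the block gave 0.12 for Itga1, 0.022 for Itga6 and 0.014 for Itgav. For the difference, Itgb5 was 0.12 without sex and 12.16 without m2 and m3, Itga6 -0.29 without m2 and m3, and the block gave 4.51 for Itgav and -0.48 for Itgb4. For time in WT Itgav was -1.13 with the block and -0.41 with endothelial scaling, and Itga1 -0.23 with that scaling. For time in KO Itgav was 0.030 with DESeq2 and 0.031 with its size factors, 0.054 without sex and 3.05 with the block; Itgb3 was -1.59 without m2 and m3; endothelial scaling gave -0.16 for Itga5, -0.33 for Itgb1 and -0.32 for Itgb3.

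Leaving out 1 library at a time gave these lowest and highest values for subunits whose sign turned. KO effect at 2 weeks: Itga6 -0.49 and 0.039, Itgav -4.23 and 1.32, Itgb1 -0.11 and 0.13, Itgb5 -8.28 and 4.57. At 4 weeks: Itga1 -0.34 and 0.17, Itga6 -0.29 and 0.061, Itgb3 -0.52 and 0.14. Difference: Itga2 -0.27 and 1.31, Itga6 -0.16 and 0.38, Itgav -1.28 and 2.48, Itgb3 -9.64 and 5.68, Itgb5 -4.31 and 1.21. Time in WT: Itgav -0.30 and 0.80. Time in KO: Itgav -0.83 and 3.28, Itgb3 -0.53 and 10.70. Genes passing ranged from 7 to 51 for the difference (51 without the 2-week KO male m2), from 588 to 1261 for time in WT (588 without WT female f of 4 weeks) and from 504 to 1222 in KO (504 without KO female f2). Subunits passing ranged from 2 to 4 in WT and 1 to 2 in KO. For time, Itgb1 in WT stayed past the threshold whichever 1 library was left out. Itga2 did so in WT and in KO. It entered the fit only through the 4-week libraries, where it is high, so this gives no support for its rise. With the longest transcript as length, WT levels at 4 weeks were 12.42 CPM per kb for Itga1, 73.14 for Itga6 and 1.883 for Itgav. Library depth does not resolve the 7 subunits that miss 3 counts in some 2-week library.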
